A study of Mus musculus with 6 samples.

Results

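The genes described here are 34 genes of cholesterol and fatty acid synthesis and its regulation, followed in embryonic stem cells of the mouse with and without Rbbp4. Such cells are pluripotent and derive from the early embryo. The list was chosen by pathway symbol, with earlier results of the same control and knockout comparison already known, so the differences between the groups are given below as a description of these genes and are not independent evidence about them. All 34 symbols matched 1 identifier each among the 52870 identifiers in the files. 33 of the 34 were among the 13579 genes that reached 1 FPKM in at least 3 libraries and were tested. They comprise 18 enzymes of the sterol branch, 10 enzymes of the fatty acid branch and 6 genes of sterol regulation and transport. The list does not hold every enzyme of either branch.

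RNA sequencing was done on 3 libraries from Rbbp4F/F cells, the control, and 3 from Rbbp4-/- cells, called the knockout here, all of the C57BL/6 strain. Rbbp4 encodes a histone-binding subunit shared by several chromatin complexes. Levels are in FPKM, which divides the fragments of a gene by its length and by the library's total, so levels of different genes can be set side by side. The labels do not say how or when the gene was deleted, or whether a group's libraries are from different cultures or clones, so the p-values speak to differences among these libraries alone, and their spread may be technical.

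Cholesterol is built from acetyl-CoA through mevalonate, farnesyl diphosphate, squalene and lanosterol, and fatty acids are built from the same acetyl-CoA by the acetyl-CoA carboxylase and fatty acid synthase, then elongated and desaturated. Both branches are known targets of the SREBP transcription factors encoded by Srebf1 and Srebf2. These are held in the endoplasmic reticulum by the proteins of Scap and Insig1 when sterols are plentiful and are released to the nucleus when sterols are scarce. Insig1 is itself a classical SREBP target, and SREBP acts at promoters together with the general factors NF-Y and Sp1.

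The targeted gene separated the groups, although a part of its signal remained. Rbbp4 had 58.5, 57.0 and 61.8 FPKM in control replicates 1 to 3 and 21.3, 12.7 and 11.1 FPKM in knockout replicates 1 to 3, so that 25.5% of the control mean was left. Along principal component 2, knockout replicate 1 lay at 36 and the other knockout libraries at −7 and −24.2, so it stood apart, and results that rest on it are given without it as well. Estimated depth was 25200000 to 28500000 fragments per library, so that a single fragment of a 2 kb transcript counts as 0.0202 to 0.0230 FPKM. The marker counts that follow stand beside all tested genes, of which 36.7% rose and 22.5% fell. Of 9 stem cell markers 7 fell and 0 rose, and their summed level was 4840 to 4970 FPKM in controls and 1500 to 2320 FPKM in the knockout. Zfp42, at 35.1 ± 2.34 and 31.95 ± 2.57 FPKM, and Lin28a, at 116.5 ± 12.9 and 121.6 ± 16.1 FPKM, were not called. Of 7 trophoblast markers 6 rose and 0 fell, from sums of 109 to 167 FPKM to sums of 2180 to 3930 FPKM. Krt8, at 65.8 ± 17.7 and 1586 ± 478 FPKM, and Krt18, at 55.5 ± 11.8 and 1575 ± 437 FPKM, carry most of those sums. Elf5 was not called. Those 6 include Cdx2, at 0, 0.12 and 0.06 FPKM in the controls, against 1.40, 1.77 and 1.39 FPKM in the knockout. They also include Gata3, at 0.603 ± 0.330 and 5.17 ± 1.34 FPKM. Cdx2 and Gata3 passed the filter through the knockout libraries alone, so their calls are description only. Of 6 primitive endoderm markers 2 rose, with sums of 2.26 to 3.82 FPKM and 8.61 to 9.02 FPKM. Gata4, among those 2, also passed the filter through the knockout libraries alone. Gata6, Pdgfra and Sox7 were below the filter and not tested. Each was higher in every knockout library than in any control, as were 41.3% of all tested genes. The groups of Sox17 overlapped, and it was not called. Of 8 fibroblast markers 1 fell and 0 rose, with sums of 12.8 to 19.1 FPKM and 9.31 to 10.7 FPKM, but Thy1 was the 1 marker tested and carries most of those sums. Col1a2, Col3a1, Dcn, Lum and Pdgfrb, all under 1 FPKM, were higher in every knockout library than in any control, Dcn at 0.213 ± 0.137 and 0.727 ± 0.220 FPKM. That was so for 41.3% of all tested genes too, and these markers were below the filter. Lum and Postn were at 0 in all 3 controls. Markers of cell identity moved together with the lipid genes, and the part of that shift in the values below was not tested. In bulk RNA, fewer cells of a type and less RNA per cell cannot be told apart.

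Promoters are shown first because the members are known as SREBP targets. The RefSeq promoter table on GRCm38.p6, which gives 250 bases before to 50 bases after each annotated start, holds windows for 27 of the 34 genes, 34 windows in all. It holds none for Fdps, Fdft1, Sqle, Stard4, Scd1, Scd2 and Fads1. The 150 bases just upstream of the start are printed here for Hmgcs1, which has the sterol element, for Insig1, Dhcr7 and Nsdhl, which fell as Hmgcs1 did, and for Sc5d, Me1 and Hsd17b7, which did not. Capitals mark matches, on either strand, to a sterol regulatory element (TCACNCCAC), an E-box (CACGTG), an NF-Y box (CCAAT) or a GC box (GGGCGG), and overlapping matches are both marked. Hmgcs1 lies at chr13:119690201-119690350 on the plus strand, Insig1 at chr5:28071262-28071411 on the plus strand, Dhcr7 at chr7:143823017-143823166 on the plus strand (the first of its 3 windows) and Nsdhl at chrX:72918371-72918520 on the plus strand. Sc5d lies at chr9:42264301-42264450, Me1 at chr9:86695915-86696064 (the first of its 2 windows) and Hsd17b7 at chr1:169969206-169969355, all on the minus strand.
Hmgcs1: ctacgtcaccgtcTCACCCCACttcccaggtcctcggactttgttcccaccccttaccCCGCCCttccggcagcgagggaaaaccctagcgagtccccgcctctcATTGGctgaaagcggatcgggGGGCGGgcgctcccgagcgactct
Insig1: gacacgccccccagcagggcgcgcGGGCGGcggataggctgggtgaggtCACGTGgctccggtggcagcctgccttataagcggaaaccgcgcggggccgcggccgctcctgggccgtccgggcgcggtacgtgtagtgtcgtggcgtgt
Dhcr7: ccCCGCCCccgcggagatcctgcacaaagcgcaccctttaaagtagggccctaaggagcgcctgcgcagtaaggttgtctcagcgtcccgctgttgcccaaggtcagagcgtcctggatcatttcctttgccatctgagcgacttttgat
Nsdhl: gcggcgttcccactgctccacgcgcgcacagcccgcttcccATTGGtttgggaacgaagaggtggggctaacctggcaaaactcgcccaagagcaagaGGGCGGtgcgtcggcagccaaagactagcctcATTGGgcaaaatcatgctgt
Sc5d: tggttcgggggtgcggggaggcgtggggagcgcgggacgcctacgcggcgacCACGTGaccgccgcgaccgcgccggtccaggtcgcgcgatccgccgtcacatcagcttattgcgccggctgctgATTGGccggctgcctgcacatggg
Me1: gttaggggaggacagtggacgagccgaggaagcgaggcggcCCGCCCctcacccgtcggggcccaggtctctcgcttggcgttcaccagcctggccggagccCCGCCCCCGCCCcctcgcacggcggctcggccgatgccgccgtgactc
Hsd17b7: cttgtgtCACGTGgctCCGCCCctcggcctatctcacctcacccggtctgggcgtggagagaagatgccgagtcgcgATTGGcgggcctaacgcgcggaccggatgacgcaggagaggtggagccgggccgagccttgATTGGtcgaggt

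Exact sterol elements were rare in these windows and NF-Y boxes were frequent. The sterol element was in 1 of the 27 genes, Hmgcs1, where it starts 137 bases before the annotated start, and in 1.44% of all 27025 genes in the table. NF-Y boxes were in 21 of the 27 genes (77.8%), against 41.1% of all genes in the table and 43.5% of its 9864 tested genes. By window they were in 22 of 34 windows (64.7%), against 37.4% of all windows. GC boxes were in 23 of the 27 genes (85.2%), against 38.2% of all genes but 70.3% of the tested ones, and E-boxes were in 6 (22.2%), against 8.09% and 12.0%. Sc5d, which rose, and Hsd17b7, which was not called, hold NF-Y boxes like most genes that fell. Insig1, Dhcr7 and Me1 also hold NF-Y boxes, but outside the stretches printed above. Those of Dhcr7 and Me1 lie in other windows of these genes, as does the E-box of Dhcr7. A match describes letters in the window and not a bound site.

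Most of the enzymes of both branches were lower in the knockout. Of the 33 tested genes 24 fell and 3 rose, by limma with an adjusted p under 0.05 over all tested genes, and 15 fell by at least 1 on the log2 scale. Over all tested genes 59.1% were called, 36.7% as higher and 22.5% as lower. In 26 of the 33 every knockout library lay below every control library, as it did in 25.5% of all tested genes, and in 3 every one lay above, as it did in 41.3%. Since the list was drawn up with this comparison known, these shares are set side by side and nothing is read from them. With median-ratio scaling between libraries 46.3% of all calls were higher in place of 62.0%, and over all tested genes the median log2 fold change became −0.04 in place of 0.17. Under that scaling 28 of the 33 genes fell and 1 rose, where 31.1% of all tested genes fell and 26.8% rose. The higher calls of Scap and Me1 were lost.

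**Figure D1:**
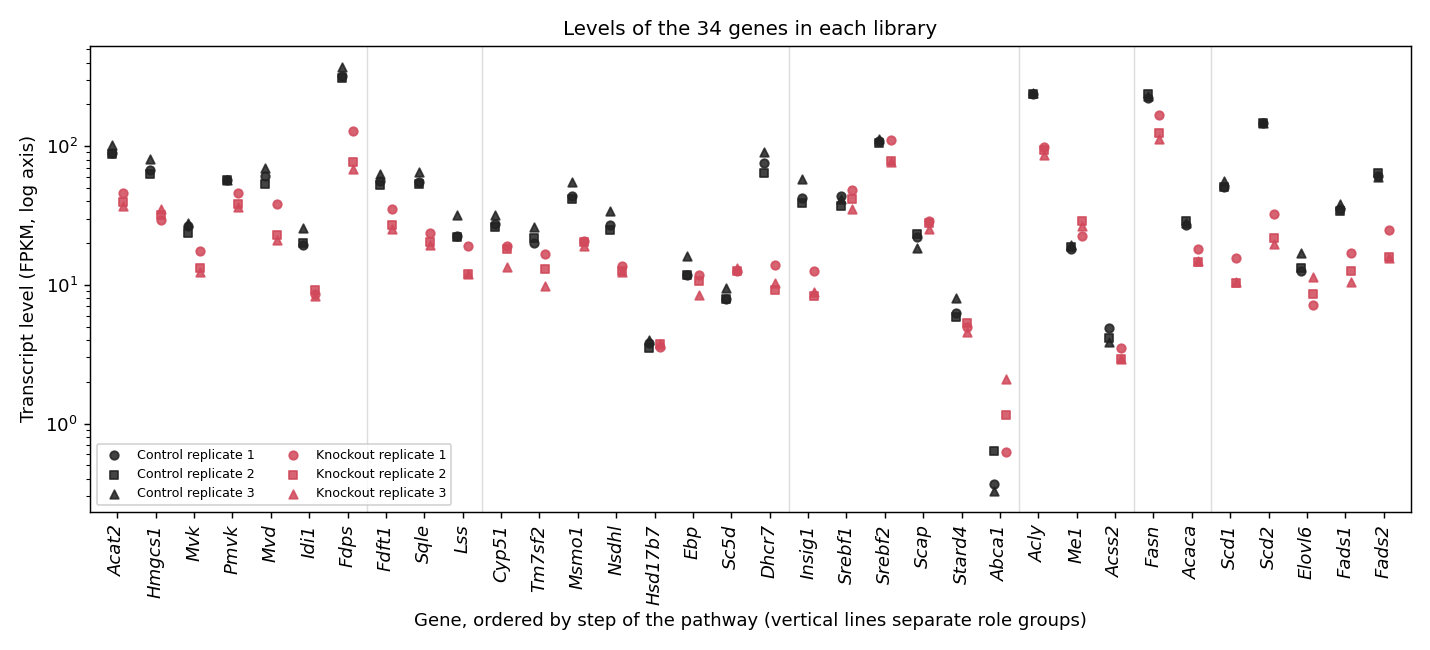
Transcript level in FPKM on a log axis for each of the 34 genes, in 3 control libraries (black) and 3 knockout libraries (red), with replicate numbers as symbols and vertical lines between role groups. Fdps, Acly and Fasn head the control levels, and the red points lie below the black ones for most enzymes of both branches but overlap or exceed them for Hsd17b7, Ebp, Sc5d, Srebf1, Srebf2, Scap, Abca1 and Me1.

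The first steps, from acetyl-CoA to farnesyl diphosphate, fell in all 7 genes, where 22.5% of all tested genes fell. Their median log2 fold change was −1.17. Acat2, the cytosolic thiolase that joins the first acetyl units, stood at 89.4, 87.3 and 102 FPKM in the control libraries and at 45.7, 39.2 and 37.0 FPKM in the knockout ones. Hmgcs1, the synthase of the next step, had 67.2, 62.7 and 80.2 FPKM and then 29.3, 32.1 and 35.0 FPKM, a log2 fold change of −1.10 (SE 0.12). In both genes the groups were far apart. The kinase genes fell too, Mvk from 26.0 ± 2.23 to 14.4 ± 2.74 FPKM (SD, n = 3 in each group here and below) and Pmvk from 56.8 ± 0.0839 to 40.3 ± 5.30 FPKM. Mvd, the decarboxylase gene that makes the isoprenoid unit, fell from 61.1 ± 7.84 to 27.4 ± 9.55 FPKM. Idi1, the gene of the isomerase of that unit, had 19.4, 20.01 and 25.9 FPKM and then 8.61, 9.20 and 8.38 FPKM.

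Fdps had the highest control level of the 34 genes. This gene, whose enzyme makes farnesyl diphosphate for sterols and for protein prenylation, stood at 322, 307 and 371 FPKM in the control libraries and at 129, 76.6 and 68.1 FPKM in the knockout ones. That was a log2 fold change of −1.91 (SE 0.23), and knockout replicate 1 held 1.79 times the mean of the other knockout libraries. Several of these genes share sequence with others. Transcripts of Acat3 hold 39.1% of the 50-base words of Acat2, at 0.300 ± 0.250 FPKM in the controls, against 0.0367 ± 0.0404 FPKM in the knockout, and Gm43738 on the same strand covers 26.7% of the exonic length of Fdps, at 0.487 ± 0.843 and 0.0933 ± 0.162 FPKM. For Idi1 the share is 17.7%, with Gm13502 at 4.66 ± 3.02 and 2.53 ± 1.18 FPKM. How the authors divided such reads is not given in the sources used here.

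The 3 genes from farnesyl diphosphate to lanosterol also fell, where 22.5% of all tested genes did. Fdft1, the squalene synthase gene, had 55.6, 52.6 and 62.6 FPKM and then 35.2, 27.2 and 25.1 FPKM. Antisense exons of Ctsb, which had 32.3 ± 2.19 and 44.2 ± 3.75 FPKM, cover 18.3% of Fdft1. Sqle, the epoxidase that is a rate-limiting step after mevalonate, had 55.3, 53.4 and 65.4 FPKM and then 23.7, 20.4 and 19.2 FPKM, a log2 fold change of −1.42 (SE 0.12). Lss, which closes the ring to lanosterol, had 22.6, 22.2 and 31.9 FPKM and then 19.0, 12.1 and 12.0 FPKM. Its groups came close to each other, and its call was lost without control replicate 3 (log2 fold change −0.64 in place of −0.80) and without knockout replicate 2 (−0.70).

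In the late steps, from lanosterol to cholesterol, the genes did not all move one way. Of 8 genes 5 were lower, 1 higher and 2 not called, where 22.5% of all tested genes fell and 36.7% rose. Dhcr7, the reductase of the last step, stood at 75.2, 64.2 and 90.3 FPKM in the control libraries and at 13.9, 9.17 and 10.3 FPKM in the knockout ones. That left 14.5% of the control mean (log2 fold change −2.69, SE 0.18), the lowest share among the 34 genes. Dhcr7 lies on GRCm38 chromosome 7, 143823145 to 143848410, on the plus strand. In order of level it was number 7 of the 34 genes in the controls and number 26 in the knockout, where it stood behind Sc5d.

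Of the genes that remove methyl groups from lanosterol, 3 fell and 1 was not called, where 22.5% of all tested genes fell. Msmo1, a C4 sterol methyl oxidase gene, fell from 46.8 ± 7.28 to 20.1 ± 0.873 FPKM and Nsdhl, which acts with it, from 28.8 ± 4.74 to 12.9 ± 0.711 FPKM. Cyp51, the lanosterol demethylase gene, fell from 28.4 ± 2.92 to 16.8 ± 2.99 FPKM, and Tm7sf2, a C14 sterol reductase gene, from 22.6 ± 3.20 to 13.2 ± 3.41 FPKM. The Tm7sf2 call was lost without control replicate 3 (log2 fold change −0.65 in place of −0.76). Exons of Vps51 on the same strand, at 25.19 ± 2.70 and 29.35 ± 1.72 FPKM, cover 12.1% of Tm7sf2. Hsd17b7, the reductase gene that completes the same demethylation, had 3.80, 3.50 and 4.04 FPKM and then 3.57, 3.78 and 3.76 FPKM. Its libraries were interleaved, and its log2 fold change of −0.02 (SE 0.12) became 0.10 with equal library sums. Ebp, the isomerase gene, had 11.8, 11.8 and 16.2 FPKM and then 11.8, 10.6 and 8.42 FPKM, and it was called as lower with median-ratio scaling (−0.54 in place of −0.33) and upper-quartile scaling (−0.48).

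Sc5d was the sterol enzyme gene that rose. This desaturase gene, whose enzyme acts just before Dhcr7 in the pathway, stood at 7.97, 7.96 and 9.56 FPKM in the control libraries and at 12.5, 12.6 and 13.3 FPKM in the knockout ones. The groups did not overlap, the log2 fold change was 0.54 (SE 0.11), and it kept its call under all 12 alternatives, at 0.33 to 0.69.

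**Figure D2:**
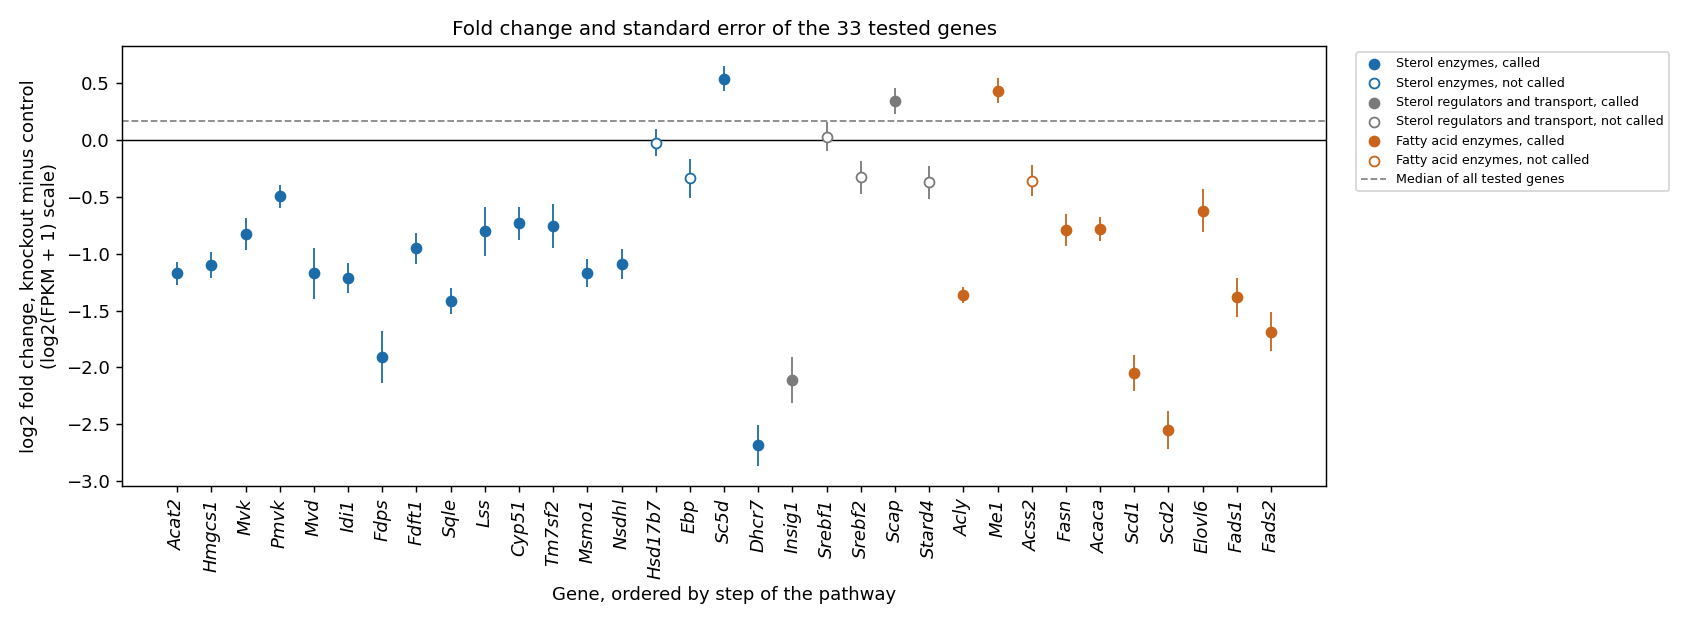
The log2 fold change of the 33 tested genes, knockout minus control on the log2(FPKM + 1) scale, with its standard error as a bar, coloured by branch, filled where called and open where not. Dhcr7 and Scd2 lie lowest, at −2.69 and −2.55, while Sc5d, Scap and Me1 lie above the dashed median of all tested genes at 0.17.

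Of the 5 tested genes of regulation and transport 1 fell, 1 rose and 3 were not called, where 22.5% of all tested genes fell and 36.7% rose. Under median-ratio scaling 3 fell and 0 rose, where 31.1% of all tested genes fell and 26.8% rose. The counts were the same under upper-quartile scaling, where 28.6% fell and 29.5% rose. Insig1, which encodes the sterol-sensing anchor of SREBP and is also its target, had 42.6, 38.6 and 57.6 FPKM and then 12.7, 8.32 and 8.83 FPKM, a log2 fold change of −2.11 (SE 0.20). Srebf1 had 43.5, 36.7 and 41.7 FPKM and then 48.6, 41.4 and 35.4 FPKM, with the groups interleaved and a log2 fold change of 0.03 (SE 0.13), which became −0.19 with median-ratio scaling. The value covers all transcripts of Srebf1, so its isoforms cannot be told apart.

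Srebf2, the factor gene tied most closely to sterol enzymes, stood at 109, 106 and 113 FPKM in the control libraries and at 110.1, 77.8 and 76.7 FPKM in the knockout ones. Knockout replicate 1 lay at the control level and the other knockout libraries lay below it. It was not called (log2 fold change −0.33, SE 0.14), but it was called as lower when knockout replicate 1 was left out (−0.50) and under median-ratio (−0.55) or upper-quartile scaling (−0.49). Scap, the escort of the SREBP proteins, had 22.2, 23.1 and 18.3 FPKM and then 28.7, 27.8 and 25.1 FPKM. Its call as higher (0.35, SE 0.11) did not hold under median-ratio (0.13) or upper-quartile scaling (0.19), without a filter (0.35), without control replicate 1 (0.38) or 3 (0.25) or without knockout replicate 1 (0.31) or 2 (0.33). Antisense exons of 5830462I19Rik, at 0.0433 ± 0.0351 and 0.0900 ± 0.0436 FPKM, cover 13.2% of Scap.

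The transport genes were low. Stard4, a carrier of cholesterol between membranes, had 6.31, 5.87 and 8.04 FPKM and then 4.94, 5.32 and 4.60 FPKM, with groups that did not overlap. It was not called (log2 fold change −0.37, SE 0.14) and was called as lower with median-ratio (−0.56) and upper-quartile scaling (−0.51). Abca1, the exporter of cholesterol that responds to the sterol receptors of the LXR family, had 0.370, 0.640 and 0.330 FPKM and then 0.630, 1.16 and 2.09 FPKM. It reached 1 FPKM in only 2 libraries and is the gene that was not tested, and without a filter its log2 fold change of 0.62 (SE 0.25) was not called. Its groups overlapped, since knockout replicate 1 lay within the range of the controls, and it was also not called when each control library was left out in turn. Without knockout replicate 1 it passed the filter through the knockout libraries alone, so no call is given for that setting.

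In the fatty acid branch 8 of 10 genes fell and 1 rose, where 22.5% of all tested genes fell and 36.7% rose. The supply genes divided. Acly, which makes cytosolic acetyl-CoA from citrate, stood at 239, 237 and 242 FPKM in the control libraries and at 98.1, 94.0 and 85.9 FPKM in the knockout ones, a log2 fold change of −1.36 (SE 0.07) with little spread in either group. Acss2, which makes it from acetate, had only 4.85, 4.15 and 3.85 FPKM and then 3.53, 2.91 and 2.94 FPKM. It was not called (log2 fold change −0.36, SE 0.14). Under median-ratio scaling (−0.53), upper-quartile scaling (−0.48) or without knockout replicate 1 (−0.42) it was called as lower. Exons on the opposite strand cover 9.1% of Acss2, among them those of Gss at 14.5 ± 1.42 and 21.7 ± 1.57 FPKM.

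Me1, the malic enzyme gene that supplies NADPH, had 18.3, 18.9 and 19.3 FPKM and then 22.4, 28.7 and 26.7 FPKM. It rose (log2 fold change 0.44, SE 0.11), and its groups did not overlap, but under median-ratio scaling (0.22) and upper-quartile scaling (0.28) it was no longer called. The pseudogene Gm7049, at 0.0100 ± 0.0173 FPKM in the controls, against at 0 in all 3 knockout libraries, holds 21.1% of the 50-base words of Me1.

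Both chain-building genes fell, where 22.5% of all tested genes did, with a median log2 fold change of −0.78. Fasn, the fatty acid synthase gene, had 223, 237 and 230 FPKM and then 167, 124 and 113 FPKM, a log2 fold change of −0.79 (SE 0.14). In the knockout it had the highest level of the 34 genes, where Fdps and Acly had stood above it in the controls. Acaca, the carboxylase gene, had 27.1, 28.7 and 27.8 FPKM and then 18.3, 14.6 and 14.8 FPKM. Of its 50-base words 29.2% also occur in the pseudogene Gm5182, which had 0.00333 ± 0.00577 and 0.00667 ± 0.0115 FPKM.

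All 5 genes of elongation and desaturation fell, where 22.5% of all tested genes did, with a median log2 fold change of −1.69. Scd2, a stearoyl-CoA desaturase gene, stood at 146, 147 and 146 FPKM in the control libraries and at 32.4, 21.7 and 19.9 FPKM in the knockout ones, which left 16.9% (log2 fold change −2.55, SE 0.17). Its paralog Scd1 had 51.0, 50.3 and 56.4 FPKM and then 15.6, 10.3 and 10.5 FPKM, which left 23.1%. Scd2 therefore made up 74.1%, 74.5% and 72.1% of the sum of both genes in the controls and 67.5%, 67.8% and 65.5% in the knockout. The genes lie 87.6 kb apart on GRCm38 chromosome 19, Scd2 at 44293674 to 44306864 on the plus strand and Scd1 at 44394455 to 44407879 on the minus strand. Scd1 transcripts hold 2.7% of the 50-base words of Scd2, and Scd3 transcripts hold 3.4% of those of Scd1.

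Fads2 and Fads1, the desaturases of polyunsaturated fatty acids, are neighbours on the same chromosome, 81.1 kb apart. Fads2 had 60.5, 63.7 and 60.2 FPKM and then 24.9, 16.0 and 15.7 FPKM, a log2 fold change of −1.69 (SE 0.17). Fads1 had 35.1, 33.9 and 38.4 FPKM and then 17.1, 12.6 and 10.4 FPKM. In both genes knockout replicate 1 lay between the controls and the other knockout libraries. Elovl6, which extends palmitate, had 12.6, 13.3 and 17.0 FPKM and then 7.16, 8.55 and 11.4 FPKM, with knockout replicate 3 nearest the controls. Its log2 fold change was −0.62 (SE 0.19), and the call was lost without a filter (−0.62), with equal sums (−0.47), without control replicate 2 (−0.66) or 3 (−0.50) and without knockout replicate 1 (−0.48) or 2 (−0.59).

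Set against each other, the branches fell by similar amounts, and which one fell more depended on the libraries used. The median log2 fold change was −1.02 in the 18 sterol enzymes and −1.07 in the 10 fatty acid enzymes, and 0.17 over all tested genes. The difference between these medians was 0.05, and it was −0.02 without control replicate 2, 0.14 without control replicate 3 and 0.11 without knockout replicate 1. As means over genes relative to the controls, the knockout libraries averaged −0.96 in the sterol branch and −1.11 in the fatty acid branch. The sterol mean minus the fatty acid mean was −0.04, −0.11 and 0.15 in control replicates 1 to 3 and 0.17, 0.18 and 0.12 in knockout replicates 1 to 3, so control replicate 3 lay within the knockout range. No test of this difference was made. Summed over its genes the sterol branch held 993, 941 and 1159 FPKM in the controls, against 505, 392 and 365 FPKM in the knockout. The fatty acid branch held 817, 834 and 840 FPKM and then 406, 334 and 311 FPKM. Within each branch the members differed more than the branches did, from −2.69 for Dhcr7 to 0.54 for Sc5d and from −2.55 for Scd2 to 0.44 for Me1.

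**Figure D3:**
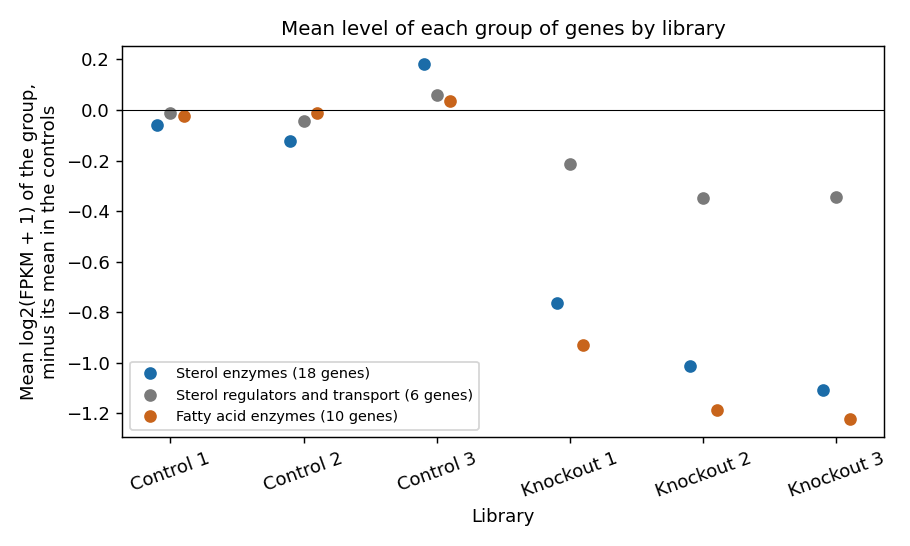
Mean log2(FPKM + 1) of the 18 sterol enzymes, the 10 fatty acid enzymes and the 6 genes of regulation and transport in each library, minus the mean of the 3 controls. Both enzyme groups lie at −0.77 to −1.22 in the knockout libraries and the regulators at −0.21 to −0.35, and among the controls the sterol enzymes spread from −0.12 to 0.18.

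Among the controls, the sterol enzymes shared a pattern that the choice of genes by group did not use directly. All 18 sterol enzymes had their highest control value in control replicate 3, by a median of 1.21 times the mean of the other controls, though Pmvk had 56.87 there against 56.86 and 56.72 FPKM. Of the 6 genes of regulation and transport, Insig1, Stard4 and Srebf2 were also highest there, at 1.42, 1.32 and 1.06 times. Srebf1 (1.04), Scap (0.808) and Abca1 (0.653) were not. Among the fatty acid enzymes 5 of 10 were highest in that library, with a median of 1.01 times, and Fasn, Acaca, Scd2 and Fads2 were at 0.998, 0.996, 0.996 and 0.969 times. Over all tested genes 39.1% were highest in control replicate 3, with a median of 1.01 times. The median coefficient of variation over the controls was 11.9% for the sterol enzymes, 3.10% for the fatty acid enzymes and 9.30% for all tested genes. These genes share 1 library, so the pattern describes that library, and neither it nor the difference between the branches was tested.

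**Figure D4:**
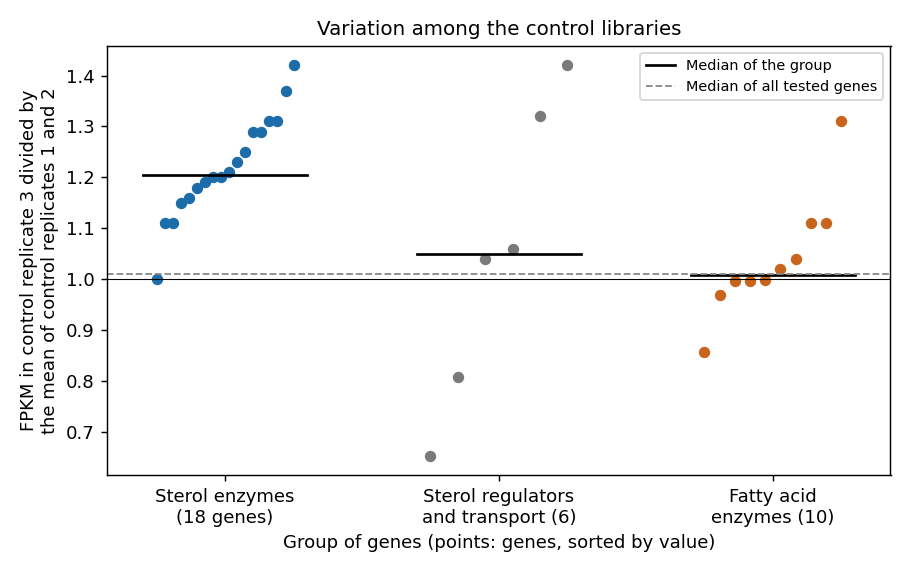
FPKM in control replicate 3 divided by the mean of control replicates 1 and 2, for each gene of the 3 groups, with the group median as a bar and the median of all tested genes as a dashed line. The sterol enzymes lie at 1.00 to 1.42 and the fatty acid enzymes at 0.856 to 1.31.

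Among the knockout libraries, replicate 1, which held the most Rbbp4 transcript, was nearest to the controls for most members that fell. It is 1 library, which also stood apart on principal component 2, and a link to its Rbbp4 level was not tested. Of the 24 genes that fell, 21 were highest there among the knockout libraries (87.5%), as were 60.5% of all 3051 genes that fell. Their median ratio to the other knockout libraries was 1.36, against 1.13 over all genes that fell. Examples beside Fdps are Mvd at 1.75 times, Scd2 at 1.56 times and Insig1 at 1.48 times, while Hmgcs1 (0.872), Idi1 (0.980) and Elovl6 (0.718) went the other way. Without knockout replicate 1, 25 of the members fell, where 25.6% of all genes then tested fell and 39.9% rose, and Sc5d and Me1 were still called as higher.

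Genes of the same pathways outside the list were called in both directions, as were genes in general. Of 20 further genes of sterol sensing, transport and use, 6 rose and 6 fell, where 36.7% of all tested genes rose and 22.5% fell. Their median log2 fold change was 0.19, close to that of all tested genes. Rnf145, a ubiquitin ligase gene of sterol sensing, fell from 44.7 ± 3.14 to 18.8 ± 1.18 FPKM (limma adjusted p = 9.39e-05), and Nr1h2, which encodes an LXR receptor, fell from 69.5 ± 3.44 to 44.6 ± 2.17 FPKM (limma adjusted p = 5.73e-04). The next pair was picked with its values in view. Insig2, the paralog of Insig1, rose from 9.78 ± 1.59 to 18.8 ± 2.71 FPKM (limma adjusted p = 0.00276), opposite to Insig1. Nr1h3, the other LXR gene, went from 0.430 ± 0.0346 to 2.997 ± 1.04 FPKM. It passed the filter through the knockout libraries alone, so its call, counted among the 6 that rose, is description only. Without knockout replicate 1, 11 of the 20 rose and 7 fell, where 39.9% of all genes then tested rose and 25.6% fell.

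Of 26 further fatty acid genes 24 were tested, of which 6 rose and 8 fell, beside the same 36.7% and 22.5% of all tested genes. Their median log2 fold change was −0.18. Fads3 passed the filter through the knockout libraries alone, so its call, counted among the 6 that rose, is description only. Elovl1, an elongase gene of very long chains, rose from 20.5 ± 0.541 to 61.2 ± 5.10 FPKM (limma adjusted p = 4.60e-05), and Hacd1, a dehydratase gene of the elongation cycle, from 4.01 ± 0.208 to 15.9 ± 1.83 FPKM (limma adjusted p = 7.53e-05). Idh1, a cytosolic source of NADPH, fell from 55.3 ± 2.67 to 19.7 ± 1.39 FPKM (limma adjusted p = 5.23e-05). Others that fell and were picked with their values in view were Slc25a1, the exporter of mitochondrial citrate, from 185 ± 9.88 to 83.8 ± 17.4 FPKM, Tecr, the reductase gene of the elongation cycle, from 203 ± 10.4 to 95.6 ± 16.6 FPKM, and Mid1ip1, an activator of the carboxylase, from 22.5 ± 4.03 to 7.62 ± 2.20 FPKM. Their limma adjusted p-values were 5.93e-04, 4.61e-04 and 0.00103. Elovl3 and Scd4 stayed below the filter.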

How the data were processed

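Total RNA taken up in Trizol went into Illumina TruSeq libraries, per the labels' protocols. The tools in the submitters' processing notes are HISAT2 2.1.0, RSEM, DESeq 1.26.0 and FastQC, with build GRCm38.p6 and no roles stated. The annotation, the strand setting and the treatment of shared reads: not given in the sources used here. The deposited values were read as FPKM from their form, since they are not whole and sum to 697933 to 800146 per library, and being relative they rise when abundant transcripts fall. Depth was estimated from the even spacing of low values, of which 84.5% to 88.2% lay within 0.15 of a whole step. No count model was used.

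Of 52872 rows per file 2 hold no identifier. GENCODE M21 on GRCm38 gave symbols for 51719 of 51912 Ensembl identifiers, and the 958 other rows are assembled loci. The filter was 1 FPKM or more in at least 3 libraries. On the log2(FPKM + 1) scale, limma 3.58.1 (R 4.3.3) was fitted with a mean trend and no term but group. Its two-sided p-values were adjusted by Benjamini-Hochberg over all tested genes, at a threshold of 0.05. The fit was tested on simulated data. Alternatives were 3 scalings, a pseudocount of 0.1, no filter, a replicate block and each library left out, with the filter then at 2 libraries.

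The members, the lists outside them and the settings were chosen with earlier results of these data known. Named by rule outside the members were Rbbp4 and, per list, up to 3 called genes with the smallest p, of which some are not reported here.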

Additional observations from a re-analysis of the deposited data

How the results depend on the processing

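Of 396 combinations of a member and an alternative, 362 kept the call and direction, 18 lost a call, 10 gained one and 6, all of Srebf1 or Hsd17b7, changed sign without a call. 22 of the 33 tested members kept their call under all 12 alternatives, 21 of them as lower. With median-ratio scaling the number of members higher was 1, the sterol median −1.24 and the fatty acid median −1.30, 0 regulators rose and 3 fell, 0 fatty acid enzymes rose, and 11 breakdown genes fell where 31.1% of all genes did. With upper-quartile scaling 1 member was higher, 0 regulators rose and 3 fell, 0 fatty acid enzymes rose, and the fatty acid median was −1.24. With equal sums the fatty acid median was −0.92. These shifts follow those of all genes (median −0.04, 0.02 and 0.31). Without a filter 0 regulators rose, as Scap lost its call at an unchanged log2 fold change of 0.35. The fit then covered 26853 genes in place of 13579, and what moved the call was not tested further. With libraries left out in turn, 0 to 1 regulators rose and 1 to 2 fell, 6 to 11 other sterol genes rose, and 21 to 25 members fell. With the replicate number as a block 24 members fell and 3 rose, and no member's call changed; same-numbered libraries did not deviate together (correlations −0.001, −0.009 and 0.049 over 13579 genes), so the numbers were not taken as pairs. Values are deposited to 0.01 FPKM, which with depth limits low genes such as Abca1.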

Other observations

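Genes of fatty acid breakdown, the opposite process, were called in both directions. Of 22 listed 21 were tested, of which 6 rose and 6 fell, where 36.7% of all tested genes rose and 22.5% fell, with a median log2 fold change of −0.08 against 0.17 for all tested genes. Etfdh, which passes electrons from this pathway to the respiratory chain, rose from 9.42 ± 0.622 to 26.6 ± 3.06 FPKM (limma adjusted p = 1.18e-04), and Cpt1c, a brain-type carnitine palmitoyltransferase gene, from 12.9 ± 0.267 to 31.9 ± 5.35 FPKM (limma adjusted p = 3.13e-04). Both were higher in 3 of 3 knockout libraries than in any control, as were 41.3% of all tested genes. With median-ratio scaling 11 of the breakdown genes fell and 4 rose, where 31.1% of all tested genes fell and 26.8% rose. Ppara stayed below the filter.

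Control replicate 3, which was highest for all 18 sterol enzymes, was also counted outside the list. It was the highest control for 10 of the 20 further sterol genes, for 14 of the 24 further fatty acid genes and for 8 of the 21 breakdown genes, beside 39.1% of all tested genes. No difference between these groups was tested.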
